A study of Mus musculus with 6 samples.

Results

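The enzymes of glycolysis, the transcription factors Myc and Hif1a and the transporters that bring sugars and amino acids into the cell were followed as 1 group of 35 genes in 3 sorted populations of mouse CD4+ T cells. The genes were chosen by name, with earlier results of these data known. Every probe set of the deposited table whose gene symbol, or its updated form, is on the list was taken. Of the 35 genes, 32 were measured, by 41 probe sets that name that gene alone, among 19938 genes measured in all. Eno1 and Gpi1 are not named on any probe set used here. Gapdh stands only on 25 probe sets that also name other genes, and its level is not given.

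Glycolysis breaks glucose down to pyruvate, which lactate dehydrogenase can turn into lactate for export. T cells that have been activated through their antigen receptor take up more glucose and amino acids, and Myc, a basic helix-loop-helix transcription factor, drives much of that growth program. Hif1a, the oxygen-sensitive subunit of hypoxia-inducible factor, also induces glycolytic genes, and the large neutral amino acid carrier made of Slc7a5 and Slc3a2 supplies leucine, which the growth kinase complex mTORC1 senses. Bcl6, a transcriptional repressor, is required for follicular helper T cells, the CD4+ cells that help B cells in lymphoid follicles, and Cxcr5 is the chemokine receptor that guides cells there.

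All cells came from Bcl6_RFP reporter mice, in which red fluorescent protein reports Bcl6. The mice were males of 8 to 10 weeks that had been immunised with KLH/CFA, the protein keyhole limpet haemocyanin emulsified in complete Freund's adjuvant. Flow cytometry separated CD4+ CD44+ (antigen-experienced) cells of draining lymph nodes into Cxcr5+Bcl6+, Cxcr5+Bcl6- and Cxcr5-Bcl6- cells, with 2 arrays each, described by the submitters as biological replicates. The reporter allele, the immunisation and the CD44 gate were common to the 3 groups, and no unimmunised or naive cells were included in the 6 arrays. The sources used here do not say whether mice were pooled or whether sorted cells were restimulated. If the arrays of a group do not come from separate animals, the p-values measure only the spread between these samples, which may be technical.

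Values are log2 levels of Affymetrix probe sets, so a difference of 1 is a 2-fold difference. A change was called where limma's moderated test gave a Benjamini-Hochberg adjusted p under 0.05 over 23410 named probe sets, and "rose" and "fell" are used only of called changes. SE is the standard error of a log2 difference. Each gene is given by its probe set of the highest mean level. No measured member had a mean under the median of the tested probe sets, so a filter on dim probe sets removed none. The sorted genes followed the labels, with Cxcr5 at 10.98 and 11.01 in Cxcr5+Bcl6+, 9.91 and 9.98 in Cxcr5+Bcl6- and 7.34 and 7.61 in Cxcr5-Bcl6- arrays. Bcl6 was at 11.45 and 11.55, at 10.55 and 10.56, and at 10.31 in both arrays, in the same order of groups. The 3 comparisons share arrays and are not independent of each other.

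The first comparison set the cells with both markers against the cells with neither. Myc, hexokinase 2 (Hk2) and 8 of the 11 transporters were lower in Cxcr5+Bcl6+ cells. The aldolase Aldoc, Hif1a, Pfkfb4 (which helps set the level of an activator of phosphofructokinase), Tpi1 (triosephosphate isomerase) and Bnip3 (a mitophagy receptor) were higher. In counts, 15 of the 32 members fell and 5 rose, that is 46.9% and 15.6%. Of all 19938 genes, 17.7% fell and 16.4% rose, 34.1% in all. Among the 9772 genes above the median level, where the members lie, the shares were 31.5% and 21.8%, 53.3% in all. The median change of the 32 members was -0.205, against 0.042 for all genes and -0.048 for genes above the median level. Leaving out Cxcr5-Bcl6- replicate 2 moved the members' median to -0.291, and renewed quantile normalisation moved it to -0.107 (all genes 0.009).

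The second comparison, of Cxcr5+Bcl6- with Cxcr5-Bcl6- cells, asks what differs with the receptor where the reporter is negative. Bcl6 RNA was not equal in these groups, at 10.55 and 10.56 against 10.31 in both arrays. Myc, Hk2, Slc16a1, Slc7a1, Slc7a5 and Slc38a2 were lower in Cxcr5+Bcl6- cells, and Aldoc and Tpi1 were higher. These 6 falls and 2 rises are 18.8% and 6.25% of the members, where 5.49% of all genes fell and 5.50% rose (11.0% in all), and 8.39% and 9.85% of genes above the median level (18.2% in all). Without Cxcr5+Bcl6- replicate 1 only 2 members fell, and without its replicate 2 only 3. After renewed quantile normalisation 7 fell and 4 rose. The members' median change was -0.009, against -0.031 for all genes.

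The third comparison, of Cxcr5+Bcl6+ with Cxcr5+Bcl6- cells, asks what differs with the reporter among cells that carry the receptor. Cxcr5 itself also differed between these groups, at 10.98 and 11.01 against 9.91 and 9.98. Myc, Hk2, Pgam1, Slc16a1, Slc7a5 and Slc2a1 were lower in Cxcr5+Bcl6+ cells, and Aldoc, Pfkfb4 and Hif1a were higher. The 14 falls and 3 rises are 43.8% and 9.38% of the members, where 13.2% of all genes fell and 11.8% rose (25.0% in all), and 24.5% and 11.4% of genes above the median level (35.9% in all). The members' median change was -0.194, against 0.055 for all genes and -0.048 for genes above the median level. It became -0.118 after quantile normalisation, when that of all genes was 0.001, and -0.269 with each array centred on its median, when that of all genes was -0.02. Across the 3 comparisons 10 members were called in none, namely Hk1, Pfkm, Pfkp, Aldoa, Pgk1, Pdk1, Pdk3, Slc16a3, Slc38a1 and Me2.

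**Figure D1:**
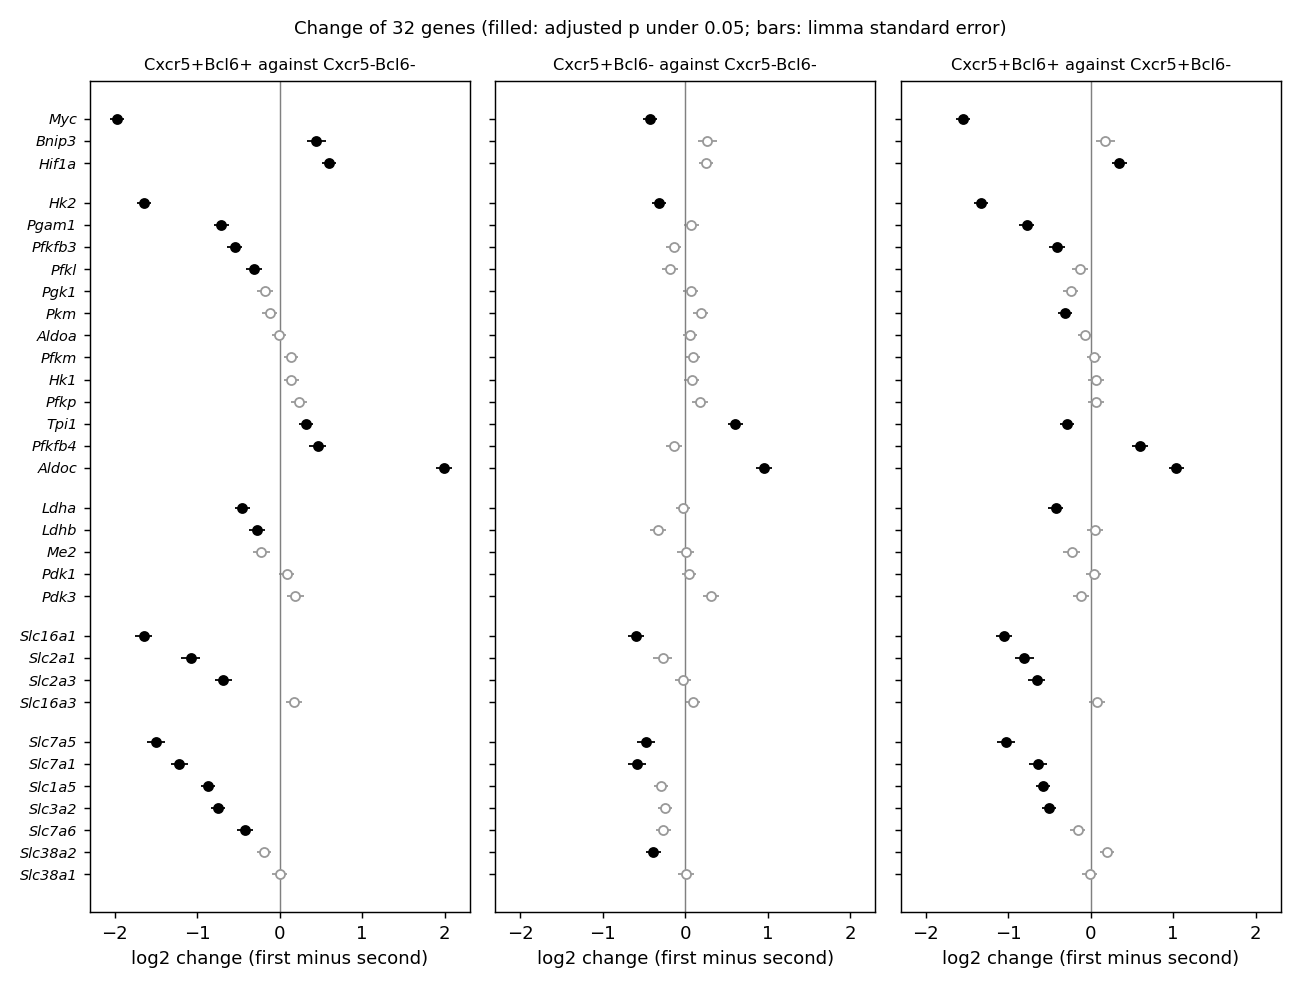
Log2 changes of the 32 measured members in the 3 comparisons, grouped by role, with the standard error of limma's fit as bars and filled points for changes with an adjusted p under 0.05. Myc, Hk2 and most transporters lie left of 0 in Cxcr5+Bcl6+ against Cxcr5-Bcl6-, whereas Aldoc lies at 1.99.

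Among the regulators, Myc was at 11.52 and 11.57 in the Cxcr5+Bcl6+ arrays, 13.07 and 13.10 in the Cxcr5+Bcl6- arrays and 13.50 and 13.53 in the Cxcr5-Bcl6- arrays. No array of a group overlapped with those of another, which with 2 arrays a group also holds for 61.4%, 49.7% and 65% of all genes in the first, second and the third comparison. Myc was 3.93-fold lower in Cxcr5+Bcl6+ cells than in those with neither marker, a log2 change of -1.97 (SE 0.0857, limma adjusted p = 2.28e-08), and 2.92-fold lower than in Cxcr5+Bcl6- cells (-1.54, adjusted p = 3.1e-07). The step between the Bcl6- groups was smaller, -0.43 (adjusted p = 0.00724). That call was lost without Cxcr5+Bcl6- replicate 1 (adjusted p = 0.0885) or replicate 2 (0.0615).

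Hif1a ran the other way, with levels of 13.57 and 13.65 in Cxcr5+Bcl6+, 13.26 in both Cxcr5+Bcl6- and 13.01 in both Cxcr5-Bcl6- arrays. It was 1.52-fold higher in Cxcr5+Bcl6+ cells than in those with neither marker (0.60, limma adjusted p = 0.000199). Between the Bcl6- groups the change of 0.25 was not called (adjusted p = 0.0952), but was after quantile normalisation (0.0463), with the trend and robust options (0.0036) and with dim probe sets left out (0.0434). Against Cxcr5+Bcl6- cells the rise was 0.35 (adjusted p = 0.0115), and it was no longer called without Cxcr5+Bcl6+ replicate 1 (0.0578), Cxcr5+Bcl6- replicate 1 (0.101) or Cxcr5+Bcl6- replicate 2 (0.0886). Hif1a is controlled largely at the level of its protein, which arrays do not measure. Bnip3, a mitochondrial protein of mitophagy and a known target of hypoxia-inducible factor, was 8.26 and 8.50 in Cxcr5+Bcl6+ against 7.96 and 7.91 in Cxcr5-Bcl6- arrays. Its rise of 0.44 (SE 0.115, adjusted p = 0.00979) was not called without Cxcr5+Bcl6+ replicate 2 (0.32, adjusted p = 0.0944).

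**Figure D2:**
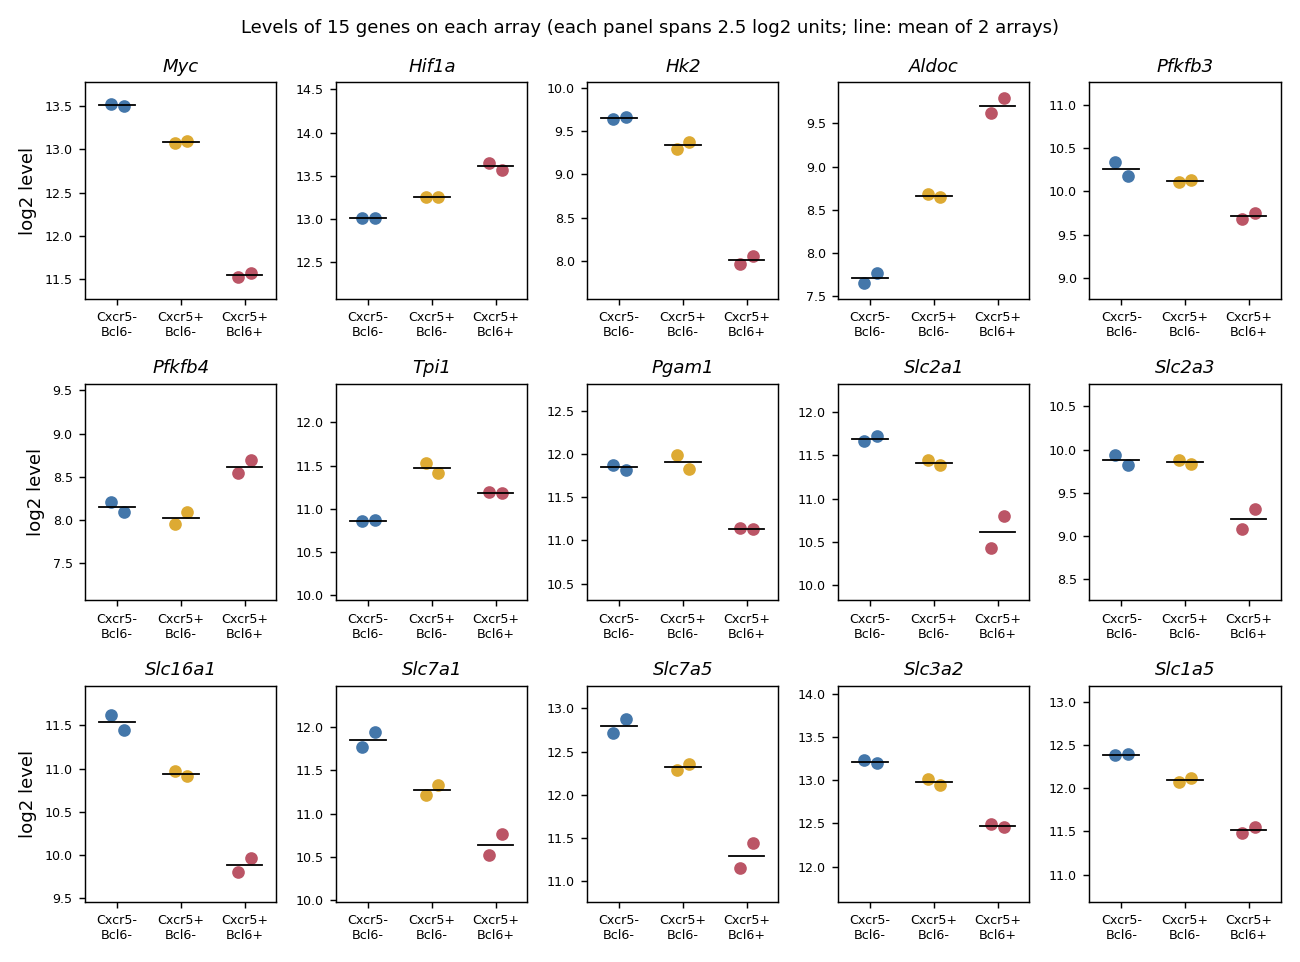
Log2 probe set level in each of the 6 arrays, 1 point per array and a line at the mean of 2, for the 14 members that passed the threshold with a change of at least 1.5-fold in a comparison and for Pfkfb3, the paralogue of Pfkfb4. The Myc arrays of Cxcr5+Bcl6+ sit at 11.52 and 11.57, below the other 4 arrays, which lie between 13.07 and 13.53, while Aldoc has the opposite order.

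Myc with its partner Max binds the E-box CACGTG, and hypoxia-inducible factor binds a site with the core ACGTG or GCGTG. The 250 bases before each annotated start were searched for both motifs on both strands in RefSeq promoter sequences of mouse build GRCm38.p6, which held 39 windows for 26 of the 32 measured members. CACGTG contains ACGTG, so each E-box also counts as a hypoxia core. An E-box lay in 6 of the 39 windows (15.4%), against 6.02% of 32851 windows of all genes, and a hypoxia core in 30 (76.9%), against 38.6%. These windows were not matched for base composition, and a match is a run of letters rather than a shown site. Windows of the same gene can overlap, as for Slc7a6, Aldoa and Pfkm, so the same motif can be counted more than once. The E-boxes belonged to Ldha, Slc16a1 and Pfkfb3, which fell, to Hif1a and Bnip3, which rose, and to Pfkm, which was not called in the first comparison. Other windows of Ldha, Pfkfb3 and Pfkm held none, and Myc, Slc7a5, Slc1a5, Slc2a3, Slc38a1 and Me2 had no window. Of the windows, 4 are shown, for each gene the one with the most E-boxes. They carry the contrast between members that fell with an E-box (Ldha with 2, Slc16a1 with 1), one that fell without any (Hk2) and one that rose with 1 (Hif1a). Capitals mark the E-boxes and hypoxia cores.
Ldha promoter (chr7:46845554-46845803, GRCm38.p6, plus strand): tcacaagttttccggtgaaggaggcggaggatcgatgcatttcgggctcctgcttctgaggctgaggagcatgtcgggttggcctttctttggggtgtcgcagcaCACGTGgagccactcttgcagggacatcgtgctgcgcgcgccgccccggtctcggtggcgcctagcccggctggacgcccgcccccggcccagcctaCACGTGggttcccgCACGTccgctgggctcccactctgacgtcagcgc
Slc16a1 promoter (chr3:104638414-104638663, GRCm38.p6, plus strand): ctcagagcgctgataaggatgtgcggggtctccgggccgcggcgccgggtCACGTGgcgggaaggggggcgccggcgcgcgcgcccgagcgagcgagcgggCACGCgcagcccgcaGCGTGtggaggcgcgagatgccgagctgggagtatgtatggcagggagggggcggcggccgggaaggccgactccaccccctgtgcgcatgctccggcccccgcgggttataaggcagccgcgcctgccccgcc
Hk2 promoter (chr6:82774455-82774704, GRCm38.p6, minus strand): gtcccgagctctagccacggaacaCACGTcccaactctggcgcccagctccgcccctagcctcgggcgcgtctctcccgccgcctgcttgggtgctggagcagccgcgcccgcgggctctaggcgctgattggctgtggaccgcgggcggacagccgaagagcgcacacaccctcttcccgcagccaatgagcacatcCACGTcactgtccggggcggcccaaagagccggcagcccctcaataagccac
Hif1a promoter (chr12:73907617-73907866, GRCm38.p6, plus strand): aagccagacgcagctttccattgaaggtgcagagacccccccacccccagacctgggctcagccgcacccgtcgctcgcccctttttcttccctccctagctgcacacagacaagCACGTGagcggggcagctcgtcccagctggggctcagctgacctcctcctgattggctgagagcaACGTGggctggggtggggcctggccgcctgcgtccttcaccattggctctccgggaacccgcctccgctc
The first bases of the Ldha E-boxes lie 145 and 48 bases before the start, that of Slc16a1 200 and that of Hif1a 135 bases before it.

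Of the 13 glycolytic enzymes measured, 4 fell and 3 rose in the first comparison, that is 30.8% and 23.1%, near the 31.5% and 21.8% of all genes above the median level, and their median change was -0.008. At the first step Hk2, which traps glucose as its phosphate, was at 7.96 and 8.06 in Cxcr5+Bcl6+, 9.30 and 9.37 in Cxcr5+Bcl6- and 9.64 and 9.67 in Cxcr5-Bcl6- arrays. The Cxcr5+Bcl6+ arrays stood more than 1 log2 unit below all others. Hk2 was 3.13-fold lower in Cxcr5+Bcl6+ cells than in those with neither marker (-1.64, SE 0.0888, limma adjusted p = 1.07e-07) and 2.51-fold lower than in Cxcr5+Bcl6- cells (adjusted p = 9.76e-07). Between the Bcl6- groups the change was -0.32 (adjusted p = 0.0421). This last call was lost with arrays centred (0.0703), with the replicate number as a block (0.0549) and without any of the 4 arrays, with adjusted p-values of 0.0872 and 0.125 without Cxcr5-Bcl6- replicates 1 and 2 and 0.355 and 0.184 without Cxcr5+Bcl6- replicates 1 and 2. Its housekeeping relative Hk1 was at 13.57 to 13.78 and was not called, a change of 0.14 in the first comparison. The other probe set of Hk1, at 10.66 to 10.82, gave -0.13 and was not called either, and 16 further probe sets list Hk1 together with other genes, so the level of Hk1 is uncertain.

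The aldolases, which split fructose bisphosphate, behaved unequally. Aldoc was at 9.62 and 9.79 in Cxcr5+Bcl6+, 8.68 and 8.65 in Cxcr5+Bcl6- and 7.66 and 7.77 in Cxcr5-Bcl6- arrays, 3 groups without overlap. It rose 3.97-fold in the first comparison (1.99, SE 0.0955, limma adjusted p = 4.4e-08), 1.93-fold in the second (adjusted p = 7e-05) and 2.06-fold in the third (adjusted p = 1.29e-05). Aldoa, the main aldolase of most cells, lay between 12.87 and 12.97 in all 6 arrays, with a change of -0.01 in the first comparison (adjusted p = 0.958).

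Enzymes that set the level of fructose 2,6-bisphosphate, the activator of phosphofructokinase, differed in direction between Cxcr5+Bcl6+ cells and the rest. Pfkfb4 was at 8.54 and 8.69 in Cxcr5+Bcl6+, 7.96 and 8.09 in Cxcr5+Bcl6- and 8.21 and 8.10 in Cxcr5-Bcl6- arrays, so that its highest levels were in Cxcr5+Bcl6+ cells and the other groups lay close together. It was 1.51-fold higher than in Cxcr5+Bcl6- cells (0.59, limma adjusted p = 0.000945) and 1.37-fold higher than in Cxcr5-Bcl6- cells (adjusted p = 0.00299). Pfkfb3 was at 9.68 and 9.75, 10.11 and 10.13, and 10.34 and 10.18 in the same order of groups, lowest in Cxcr5+Bcl6+ cells. It was 1.46-fold lower in Cxcr5+Bcl6+ cells than in those with neither marker (-0.55, adjusted p = 0.000639). Against Cxcr5+Bcl6- cells it fell by 0.41 (adjusted p = 0.00704), a call lost without Cxcr5+Bcl6- replicate 2 (0.0603). Of the phosphofructokinase subunits, Pfkl fell by 0.31 in the first comparison (adjusted p = 0.0307), and the change was -0.19 without Cxcr5+Bcl6+ replicate 1 (adjusted p = 0.192). The call of Pfkl was also lost without Cxcr5-Bcl6- replicate 1 (0.103) or 2 (0.0527) and after quantile normalisation (0.0729). Pfkm and Pfkp had changes of 0.14 and 0.24, which were not called. Without Cxcr5-Bcl6- replicate 1 that of Pfkp was 0.33 (adjusted p = 0.0375).

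Further down the pathway, triosephosphate isomerase (Tpi1), which interconverts the triose phosphates, was highest in Cxcr5+Bcl6- arrays. Its levels were 11.53 and 11.42 there, 11.19 and 11.18 in Cxcr5+Bcl6+ and 10.86 and 10.87 in Cxcr5-Bcl6- arrays. It rose 1.53-fold in the second comparison (0.61, limma adjusted p = 0.000957) and by 0.32 in the first (adjusted p = 0.0138). In the third comparison it fell by 0.29 (adjusted p = 0.0314). That call was lost after quantile normalisation (0.0686) and without Cxcr5+Bcl6+ replicate 1 (0.0814) or 2 (0.0834) or Cxcr5+Bcl6- replicate 1 (0.302) or 2 (0.0935).

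Phosphoglycerate mutase (Pgam1), which moves the phosphate of phosphoglycerate, separated the Cxcr5+Bcl6+ cells from both other groups. Its levels were 11.14 and 11.13 in Cxcr5+Bcl6+, 11.99 and 11.83 in Cxcr5+Bcl6- and 11.87 and 11.82 in Cxcr5-Bcl6- arrays, and the Bcl6- groups overlapped. Pgam1 was 1.63-fold lower than in Cxcr5-Bcl6- cells (-0.71, limma adjusted p = 8.89e-05) and 1.71-fold lower than in Cxcr5+Bcl6- cells (-0.78, adjusted p = 8.6e-05). Its 3 probe sets, of which 1 repeats the values of another, gave -0.71 to -0.58 in the first comparison. Phosphoglycerate kinase (Pgk1), which makes ATP, was not called in any comparison, with changes of -0.18, 0.07 and -0.24. The last was called with the trend and robust options (adjusted p = 0.016), with arrays centred (0.0312) and with dim probe sets left out (0.0481). Pyruvate kinase (Pkm), the last step, fell by 0.31 in the third comparison (adjusted p = 0.0232), while its other probe set was not called. Without Cxcr5+Bcl6+ replicate 1 (0.102) or Cxcr5+Bcl6- replicate 1 (0.0983) or 2 (0.207) the change of Pkm was not called, nor was the mean of its probe sets (0.0543). Counts in the second comparison were 1 fall and 2 rises of 13 enzymes, and in the third 5 falls and 2 rises. In the second that is 7.69% and 15.4%, beside 8.39% and 9.85% of genes above the median level. In the third it is 38.5% and 15.4%, beside 24.5% and 11.4%.

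Where pyruvate is turned to lactate or enters mitochondria, 2 of 5 members fell in the first comparison by limma, none in the second (1 fall and 1 rise at an unadjusted p under 0.05) and 1 in the third. That is 40% in the first and 20% in the third, beside 31.5% and 24.5% of genes above the median level. Ldha, the lactate dehydrogenase subunit of glycolytic tissues, has a promoter window with 2 E-boxes, shown above. It was at 12.92 and 12.88 in Cxcr5+Bcl6+, 13.36 and 13.30 in Cxcr5+Bcl6- and 13.39 and 13.32 in Cxcr5-Bcl6- arrays. The Bcl6- groups overlapped, and the Cxcr5+Bcl6+ arrays lay below both. Ldha was 1.37-fold lower than in Cxcr5-Bcl6- cells (-0.45, limma adjusted p = 0.00167) and fell by 0.43 against Cxcr5+Bcl6- cells (adjusted p = 0.00398, 0.0575 without Cxcr5+Bcl6- replicate 1). Ldhb, the subunit of oxidative tissues, fell by 0.28 in the first comparison (adjusted p = 0.0448), near the threshold. Its other probe set was not called. The call was lost after quantile normalisation (0.0606), with only the 4 compared arrays (0.0676) and without Cxcr5+Bcl6+ replicate 1 (0.128) or 2 (0.111), Cxcr5-Bcl6- replicate 1 (0.212) or either Cxcr5+Bcl6- array (0.0676 each). Pdk1 and Pdk3, kinases that switch off pyruvate dehydrogenase, and malic enzyme 2 (Me2) had changes of 0.08, 0.19 and -0.22 in the first comparison, which were not called. Without Cxcr5-Bcl6- replicate 1 the change of Pdk3 was 0.31 in the first (adjusted p = 0.0441) and 0.43 in the second comparison (0.0235), and without Cxcr5-Bcl6- replicate 2 that of Me2 was -0.35 (0.0281).

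Among the 4 glucose and lactate transporters, 3 fell in the first comparison, 1 in the second and 3 in the third. None rose by limma, also at an unadjusted p under 0.05. The falls are 75%, 25% and 75% of the 4, beside 31.5%, 8.39% and 24.5% of genes above the median level. Slc2a1 (Glut1), the main glucose transporter of activated T cells, was at 10.43 and 10.80 in Cxcr5+Bcl6+, 11.44 and 11.39 in Cxcr5+Bcl6- and 11.66 and 11.72 in Cxcr5-Bcl6- arrays. It was 2.11-fold lower in Cxcr5+Bcl6+ cells than in those with neither marker (-1.08, SE 0.115, limma adjusted p = 2.06e-05) and fell by 0.80 against Cxcr5+Bcl6- cells (adjusted p = 0.00038). The second comparison was not called (-0.27, adjusted p = 0.189). Slc2a3 (Glut3), a glucose transporter of high affinity, was at 9.08 and 9.31, 9.88 and 9.83, and 9.94 and 9.82 in the same order. It was 1.60-fold lower in the first comparison (-0.68, adjusted p = 0.000246), and fell by 0.66 in the third (adjusted p = 0.000639), while the Bcl6- groups overlapped.

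The monocarboxylate carriers, which move lactate and pyruvate across the plasma membrane, differed from each other. Slc16a1 (Mct1), whose promoter with 1 E-box is shown above, was at 9.80 and 9.97 in Cxcr5+Bcl6+, 10.97 and 10.91 in Cxcr5+Bcl6- and 11.62 and 11.45 in Cxcr5-Bcl6- arrays, without overlap. It was 3.14-fold lower in the first comparison (-1.65, SE 0.0989, limma adjusted p = 2.47e-07), 1.51-fold lower in the second (adjusted p = 0.0024), and fell by 1.05 in the third (adjusted p = 1.52e-05). Slc16a3 (Mct4), the lactate exporter of glycolytic cells, was at 9.46 to 9.77 over the 6 arrays, and its change of 0.17 in the first comparison was not called (adjusted p = 0.203).

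Of the 7 amino acid transporters, 5 fell in the first comparison, 3 in the second and 4 in the third, with medians of -0.743, -0.291 and -0.502. None rose by limma, and at an unadjusted p under 0.05 the 1 rise was in the third comparison. The falls are 71.4%, 42.9% and 57.1% of the 7, beside 31.5%, 8.39% and 24.5% of genes above the median level. Slc7a5 (Lat1), the light chain that carries leucine, was at 11.15 and 11.45 in Cxcr5+Bcl6+, 12.29 and 12.36 in Cxcr5+Bcl6- and 12.72 and 12.88 in Cxcr5-Bcl6- arrays. It was 2.82-fold lower in the first comparison (-1.50, SE 0.112, limma adjusted p = 1.28e-06) and fell by 1.02 in the third (adjusted p = 4.9e-05). The groups did not overlap. In the second comparison it fell by 0.47 (adjusted p = 0.0177), a call lost without Cxcr5-Bcl6- replicate 2 (0.0904) or Cxcr5+Bcl6- replicate 1 (0.104). Its heavy chain Slc3a2 (CD98), which several light chains share, was at 12.49 and 12.46, 13.01 and 12.94, and 13.23 and 13.20 in the same order. Slc3a2 was 1.67-fold lower in the first comparison (-0.74, adjusted p = 3.79e-05) and fell by 0.50 in the third (adjusted p = 0.00129). In the second its change of -0.24 was not called (adjusted p = 0.11), but was with the trend and robust options (0.00799).

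Slc7a1, the carrier of arginine and other cationic amino acids, was at 10.52 and 10.76 in Cxcr5+Bcl6+, 11.22 and 11.33 in Cxcr5+Bcl6- and 11.77 and 11.94 in Cxcr5-Bcl6- arrays. It was 2.32-fold lower in the first comparison (-1.21, SE 0.107, limma adjusted p = 4.52e-06) and fell by 0.58 and 0.63 in the second and the third (adjusted p = 0.00463 and 0.00116). Slc1a5 (Asct2), a carrier of glutamine and small neutral amino acids, was at 11.48 and 11.55, 12.07 and 12.12, and 12.38 and 12.39 in the same order. The 3 groups were apart for both genes. Slc1a5 was 1.82-fold lower in the first comparison (-0.87, adjusted p = 1.15e-05) and fell by 0.58 in the third (adjusted p = 0.000532), and its change of -0.29 in the second just missed the threshold (adjusted p = 0.0538, 0.00761 with the trend and robust options and 0.0238 with dim probe sets left out). Slc7a6, another light chain of Slc3a2, fell by 0.42 in the first comparison (adjusted p = 0.00397).

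The sodium-coupled carriers Slc38a1 and Slc38a2, which also take up glutamine and other small neutral amino acids, showed a different picture. Slc38a1 lay between 12.01 and 12.18 in the 6 arrays and was not called (adjusted p = 0.994 in the first comparison). Slc38a2 was lowest in Cxcr5+Bcl6- arrays, at 12.18 and 12.11, against 12.32 and 12.36 in Cxcr5+Bcl6+ and 12.55 and 12.51 in Cxcr5-Bcl6- arrays. It fell by 0.38 in the second comparison (limma adjusted p = 0.014), and the call was lost without Cxcr5-Bcl6- replicate 1 (0.0543) or Cxcr5+Bcl6- replicate 1 (0.0821) or 2 (0.181).

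Genes of neighbouring pathways were read from lists chosen by name, with earlier results of these data known. Unlike the members, these lists were not checked for genes under the median level. Of all genes, 17.7%, 5.49% and 13.2% fell and 16.4%, 5.5% and 11.8% rose in the 3 comparisons. Of 20 growth genes known to be bound by Myc, for ribosome making, polyamines and the cell cycle, 19 fell in the first comparison, 9 in the second and 19 in the third. Their median changes were -1.218, -0.306 and -0.864, beside 0.042, -0.031 and 0.055 over all genes. As shares, 95%, 45% and 95% of these 20 fell, beside 31.5%, 8.39% and 24.5% of genes above the median level. The cyclin Ccnd2 (-2.31, limma adjusted p = 8.54e-09), the spermidine synthase Srm (-2.00, 2.4e-08) and the RNA polymerase I subunit Polr1b (-1.97, 3.78e-08) had the smallest p in the first comparison. Odc1, which makes putrescine, was not called (-0.04). The count in the second comparison was 3 without Cxcr5+Bcl6- replicate 1 and 5 without its replicate 2. In the Myc network itself, 4 of 12 genes fell and 2 rose in the first comparison. These 33.3% and 16.7% stand beside 31.5% and 21.8% of genes above the median level and 17.7% and 16.4% of all genes. Fewer of the 12 were called without Cxcr5+Bcl6+ replicate 1 or either Cxcr5-Bcl6- replicate, and 4 rose after quantile normalisation. Mxd4, which competes with Myc for Max, rose by 1.47 (adjusted p = 3.7e-07), whereas Mxd1, of the same family, fell by 1.42 (2e-06).

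Enzymes that branch from glycolysis into biosynthesis were lower as well. In the pentose phosphate, serine and one-carbon list, 11 of 16 measured genes fell in the first comparison, with a median of -0.549, 5 in the second and 11 in the third. None rose in any of them by limma, also at an unadjusted p under 0.05. The falls are 68.8%, 31.2% and 68.8% of the 16, beside 31.5%, 8.39% and 24.5% of genes above the median level. Shmt1 and Shmt2, which move a carbon from serine to folate, changed by -2.11 and -1.12 (limma adjusted p = 6.5e-08 and 1.52e-06), and the folate enzyme Mthfd1 by -1.88 (1.6e-07). The count of 5 became 2 without Cxcr5-Bcl6- replicate 1, 3 without its replicate 2, 2 without Cxcr5+Bcl6- replicate 1 and 1 without its replicate 2. Of 22 other genes around glycolysis, 7 fell and 2 rose in the first comparison, and fewer rose without Cxcr5+Bcl6+ replicate 2. The falls are 31.8%, beside 31.5% of genes above the median level and 17.7% of all genes. The ADP-dependent glucokinase Adpgk had the smallest p (-1.26, adjusted p = 2.23e-06).

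For mitochondrial genes the shares that fell lay nearer to those of genes above the median level than in the pentose phosphate, serine and one-carbon list. In the main fit no gene of either mitochondrial list rose in any comparison, where 21.8%, 9.85% and 11.4% of genes above the median level rose. After quantile normalisation 1 citrate cycle or glutaminolysis gene rose in the first comparison. Of 24 citrate cycle and glutaminolysis genes, 8 fell in the first comparison, none in the second and 7 in the third. The 33.3% in the first stand beside 31.5% of genes above the median level and 17.7% of all genes. The 29.2% in the third stand beside 24.5% and 13.2%. The smallest p in the first was that of the aspartate aminotransferase Got1 (-0.93, limma adjusted p = 8.24e-06). At an unadjusted p under 0.05 the second comparison had 1 fall and 1 rise, and the first and the third also had 1 rise each. The 7 became 3 when Cxcr5+Bcl6+ replicate 1 was left out and 4 when either array of Cxcr5+Bcl6- was. Of 21 respiratory chain genes, 9 fell in the first comparison (42.9%) and 7 in the third (33.3%), and all 21 changes were negative in both. Cytochrome c had the smallest p in the first (Cycs, -0.84, limma adjusted p = 2.62e-05). In the second none was called by limma, also at an unadjusted p under 0.05. These counts were 6 and 5 after quantile normalisation and 11 and 13 with arrays centred. Leaving out Cxcr5+Bcl6+ replicate 1 or Cxcr5-Bcl6- replicate 1 gave 5 in the first comparison. In the third, 3 fell when Cxcr5+Bcl6+ replicate 1 was left out, and 2 when either array of Cxcr5+Bcl6- was.

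Lists of nutrient and oxygen sensing were mixed in direction, as were genes above the median level, of which 31.5% fell and 21.8% rose in the first comparison. Of all genes, 17.7% fell and 16.4% rose. Of 19 genes of oxygen sensing or known to be induced by Hif1a, 5 fell and 4 rose in the first comparison (26.3% and 21.1%). The carbonic anhydrase Car12 fell by 2.51 (limma adjusted p = 4.35e-09), while Ddit4, an inhibitor of mTORC1, rose by 1.28 (7.01e-07). Of 24 mTORC1 pathway genes, 6 fell and 6 rose (25% each), with Rragd, a Rag GTPase that recruits mTORC1 to lysosomes, at -2.18 (adjusted p = 4.86e-08). In the third comparison 5 of them rose, but 2 without Cxcr5+Bcl6+ replicate 2, 1 without Cxcr5+Bcl6- replicate 1, none without its replicate 2 and 1 with arrays centred. Of 25 nutrient transporters outside the group, 8 rose and 4 fell in the first comparison (32% and 16%), and fewer rose without Cxcr5-Bcl6- replicate 1. With a minimum of 1.5-fold, 3 rose and 3 fell. Odorant, vomeronasal and trace-amine receptor genes were also shifted upward in this comparison, as given below. The part of that shift in the transporters' rises was not tested. Slc43a2 (Lat4), a sodium-independent carrier of large neutral amino acids, rose by 1.93 (adjusted p = 2.73e-07).

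**Figure D3:**
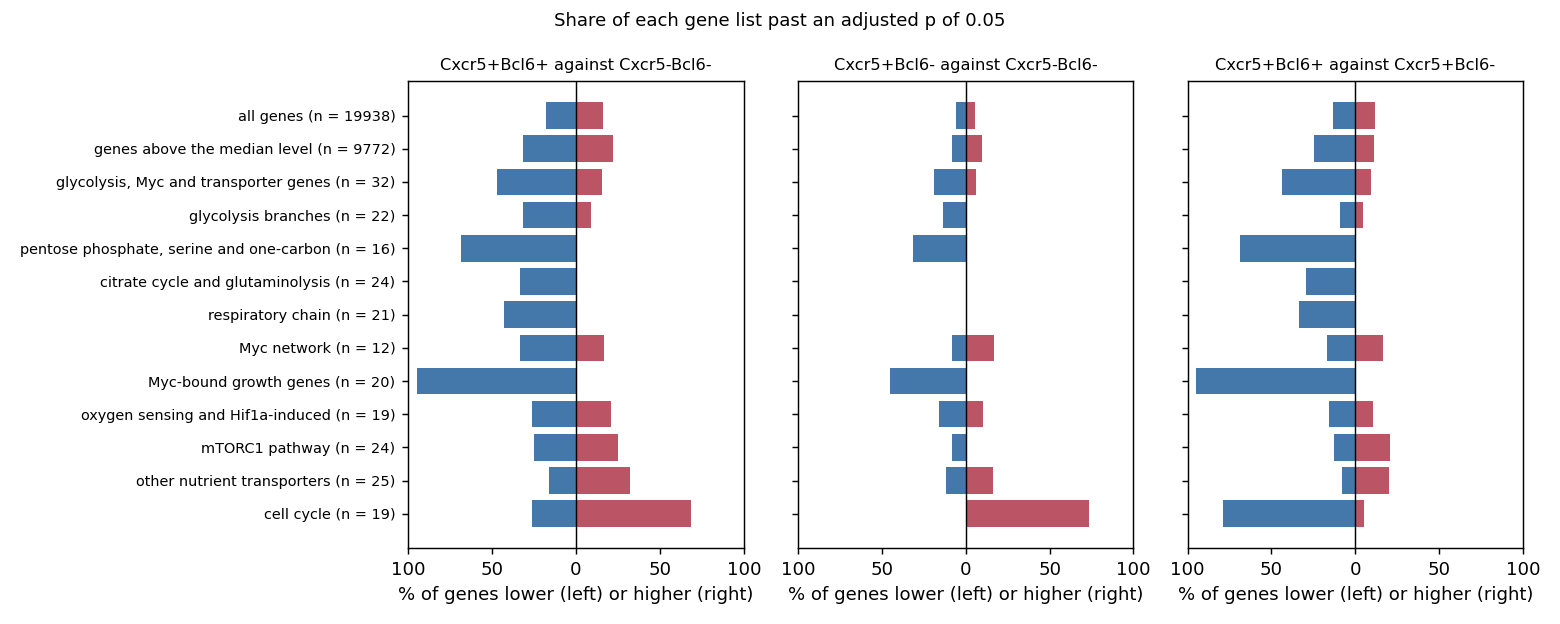
Percent of the genes of each list, of the members and of all genes that were lower (blue bars, left of 0) or higher (red bars, right of 0) at a limma adjusted p under 0.05, for the 3 comparisons. In Cxcr5+Bcl6+ against Cxcr5-Bcl6-, 19 of 20 Myc-bound growth genes and 15 of 32 members fell.

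Markers of other cell types moved with the groups. Beside their counts, 16.4% of all genes rose and 17.7% fell in the first comparison. The shares were 5.5% and 5.49% in the second and 11.8% and 13.2% in the third. Among genes above the median level, 21.8% rose and 31.5% fell in the first comparison. Of the T cell markers 50% rose and 37.5% fell there, and of the CD8 T and NK cell markers 16.7% rose and 66.7% fell. The summed level of 8 T cell markers was log2 15.50 to 15.71 in the 6 arrays, yet 4 of them rose and 3 fell in the first comparison, led by Cd4 (0.79, limma adjusted p = 2.76e-05), and 1 rose in each of the others. That of 16 dendritic and myeloid markers was 13.39 and 13.40 in Cxcr5-Bcl6- arrays, 11.90 and 11.92 in Cxcr5+Bcl6- and 11.82 and 11.86 in Cxcr5+Bcl6+ arrays, with 9 lower and 1 higher in the first comparison. All 6 plasmacytoid dendritic cell markers fell in each comparison, with a summed level of 12.80 and 12.90 in Cxcr5-Bcl6-, 11.22 in both Cxcr5+Bcl6- and 10.50 and 10.60 in Cxcr5+Bcl6+ arrays. Between the Cxcr5+ groups, 5 of the 16 dendritic and myeloid markers fell, led by Mpeg1 (-1.54, limma adjusted p = 5.93e-07) and Ccl22 (-0.97, 1.95e-05), and 1 rose, so that the near-equal sums cover changes of single markers. B cell markers went up, 6 of 7 in the first comparison, with a sum of 10.20 in both Cxcr5-Bcl6- arrays, 10.58 and 10.64 in Cxcr5+Bcl6- and 11.41 and 11.49 in Cxcr5+Bcl6+ arrays. Of 6 CD8 T and NK cell markers, 4 fell and 1 rose in the first comparison, 3 fell and 2 rose in the second, and 1 fell and 1 rose in the third. Cd8a changed by -1.07 between the Bcl6- groups (limma adjusted p = 2.95e-05), and Nkg7, a granule protein of cytotoxic cells, by -3.08 between the Cxcr5+ groups (2.05e-09). Their sum was 11.15 to 11.29 in both Bcl6- groups and 10.03 and 10.11 in Cxcr5+Bcl6+ arrays. The part of these cells in the members' changes was not tested. In sorted bulk cells, fewer cells of a type and less RNA per cell cannot be told apart.

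Cell cycle genes, which often go with growth metabolism, did not keep the order of Myc as a set, though some of them did. Of 19 measured, 13 rose and 5 fell in the first comparison, 14 rose in the second, and 15 fell and 1 rose in the third. The rises are 68.4%, 73.7% and 5.26%, beside 21.8%, 9.85% and 11.4% of genes above the median level. The falls are 26.3% in the first and 78.9% in the third, beside 31.5% and 24.5%. The 5 that fell in the first were the replication genes Mcm2, Mcm3, Mcm4, Mcm5 and Pcna, while Mcm6 rose by 0.92. Mcm2 had means of 11.11, 10.87 and 10.25 in Cxcr5-Bcl6-, Cxcr5+Bcl6- and Cxcr5+Bcl6+ cells, and Pcna 12.87, 12.74 and 12.30, the order of Myc. Mcm3, Mcm4 and Mcm5 were highest in Cxcr5+Bcl6- cells. The summed level of all 19 was highest in Cxcr5+Bcl6- arrays, at 15.49 and 15.42, against 14.99 and 15.07 in Cxcr5+Bcl6+ and 14.80 and 14.73 in Cxcr5-Bcl6- arrays. Levels of 1207 odorant, vomeronasal and trace-amine receptor genes, with a median level of 5.8, were shifted by a median of 0.223 in the first comparison, with 419 called higher. The median shift was -0.069 in the second comparison and 0.299 in the third, with 567 called higher in the third. The rises of Bnip3 and Pfkfb4, the dimmest members that rose, were 0.44 and 0.46 in the first comparison, and that of Pfkfb4 was 0.59 in the third. The part of that shift in them was not tested.

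**Figure D4:**
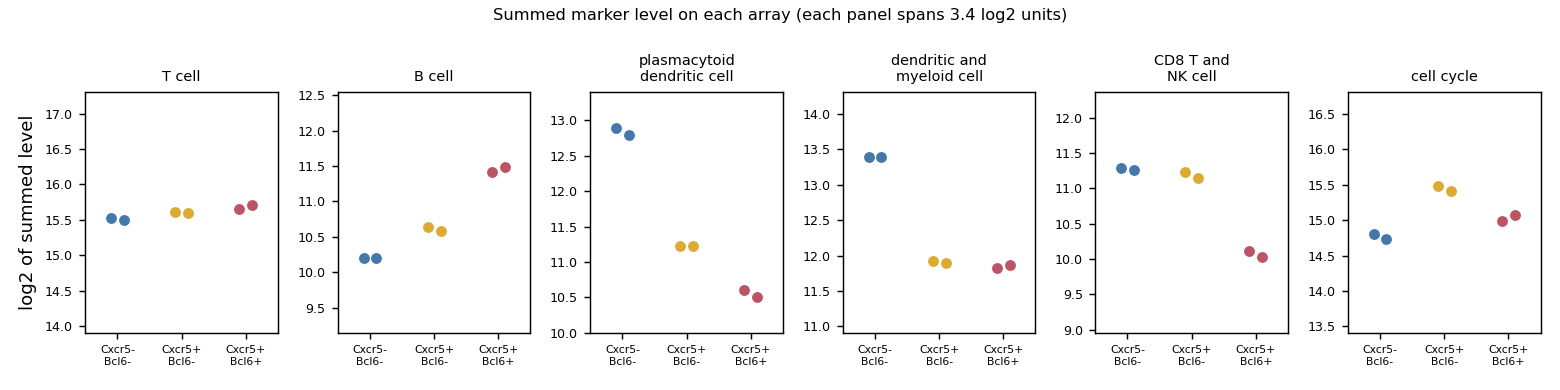
Log2 of the summed level of each marker list in each of the 6 arrays, 1 point per array. Dendritic, myeloid and plasmacytoid markers are highest in the Cxcr5-Bcl6- arrays, B cell markers in the Cxcr5+Bcl6+ arrays and cell cycle genes in the Cxcr5+Bcl6- arrays.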

How the data were processed

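Total RNA of 6 samples was extracted with Trizol, labelled with biotin by the WT Terminal Labeling kit and hybridised to Affymetrix arrays, per the labels' protocols. The authors deposited log2 probe set levels; the submitters' processing notes list Affymetrix Expression Console, RMA and GCOS 1.1, with no settings. Build: not given in the sources used here. The log2 scale was read from the values. Of 35556 rows, 21789 had 1 symbol in the platform annotation, 1621 several and 12146 none; 21698 symbols were updated through Entrez identifiers.

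Group means over the 6 arrays were fitted with limma 3.58.1 (R 4.3.3; eBayes defaults, two-sided, 3 residual and 8.25 prior degrees of freedom, prior SD 0.0989), adjusted over 23410 named probe sets at 0.05. The script was tested on simulated data. The number of arrays limits the precision. Levels per array are given for members called with a change of at least 1.5-fold, and for Myc and Hif1a; Pfkfb3, Ldha, Bnip3 and Slc38a2 were added after their values were seen. From other lists, up to 3 genes of the smallest p could be named, and Odc1 was added as the exception of its list. The members and lists were chosen with earlier results of these data known. Alternatives were eBayes with trend and robust options, quantile normalisation, centring, a filter on dim probe sets, mean probe sets, the 4 arrays compared, a 1.5-fold minimum, a replicate block and leaving out each array.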

Additional observations from a re-analysis of the deposited data

How the results depend on the processing

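No change of a member that was called reversed its direction under any alternative run. Of 45 called member changes, 25 kept their call in all of them, the 1.5-fold minimum included. With that minimum, 2 members rose in Cxcr5+Bcl6+ against Cxcr5-Bcl6-, 1 fell in Cxcr5+Bcl6- against Cxcr5-Bcl6- and 8 fell in Cxcr5+Bcl6+ against Cxcr5+Bcl6-, since smaller changes no longer counted. In Cxcr5+Bcl6- against Cxcr5-Bcl6-, 4 rose with the trend and robust options, after quantile normalisation and with dim probe sets left out. Leaving out each array in turn gave 4 to 7 rises and 13 to 15 falls in the first comparison, 2 to 3 and 2 to 6 in the second, and 2 to 3 and 11 to 14 in the third; the lone array of a group is then assumed to vary like the others. With the replicate number as a block, 15 fell and 5 rose in the first, 5 fell and 2 rose in the second, and 14 fell and 3 rose in the third comparison. The numbers do not pair the samples by any label, and the deviations of same-numbered arrays correlated at 0.258, -0.234 and -0.046. A block with crossed numbers, chosen after seeing the data, gave 15 falls and 6 rises in the first comparison. Using the other probe set of Hk1, also chosen after seeing the data, changed no call. With the trend and robust options, Slc38a2 was also called in the first (adjusted p = 0.0272) and the third comparison (0.0273) and Slc7a6 in the second (0.0378), and Ldhb was called in the second after quantile normalisation (0.045). Where a call was lost or gained, the cause was not tested. The share of all genes called is given for the main fit only. The counts of members under the alternatives therefore have no such share beside them. Detection calls and scanner signals were not used here, so signal over background could not be judged, and 2 arrays a group limit what can be called.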
